A study of Mus musculus with 20 samples.

Results

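Perforin and the granzymes are the proteins with which a cytotoxic T cell kills its target. The 10 genes described here are Prf1, which encodes perforin, and the granzyme genes Gzma, Gzmb, Gzmc, Gzmd, Gzme, Gzmf, Gzmg, Gzmk and Gzmm. They were taken by symbol from the 23992 gene symbols of the tables, and each had 1 transcript there.

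Perforin is released from lytic granules at the contact with a target cell and forms pores in its membrane, and the granzymes are serine proteases that reach the target cell's cytosol through them. Granzyme B cleaves after aspartate and activates caspases. Granzymes A and K cleave after basic residues, and granzyme M after long aliphatic residues. In mice, several further granzyme genes lie beside Gzmb and are switched on in activated T cells. IL-21 is a cytokine of T helper cells that signals through its receptor and the common gamma chain, largely by way of STAT3, and is known to favour the cytotoxic program of CD8+ T cells.

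RNA-sequencing was performed on CD8+ T cells isolated from the spleens of wild-type C57BL/6J mice aged 6 to 8 weeks. All cells, the unstimulated ones included, had been pre-activated for 48 hours with antibodies to CD3 and CD28 and rested overnight, and were then kept for 24 hours without cytokine, with 21h10 or with the native murine cytokine (mIL-21). 21h10 is a computationally designed protein made to mimic IL-21. Experiment 1 held unstimulated cells and both cytokines at 100 pM and 1 nM, experiment 2 unstimulated cells and both cytokines at 10 nM and 100 nM, and each of the 10 groups had duplicate libraries (n = 2). The labels call the native cytokine WT and the designed one h10. Nothing in the labels says that duplicates came from separate mice or cultures. The paper states that replicates of its RNA-seq were independent, from different donors or tissue preparations, but does not link this to single libraries. The p-values are therefore taken to measure the spread between libraries only. Because the low and the high doses were run in different experiments, dose range and experiment cannot be told apart, and each treated group was compared with the unstimulated cells of its own experiment.

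Between 36824740 and 94070730 reads per library fell on genes in experiment 1, and between 27072917 and 43300094 in experiment 2. The libraries carried the markers of CD8+ T cells, with Cd8a at 102 to 150 RPKM (reads per kilobase of transcript, scaled to the mapped reads of the library) and Cd3e at 130 to 336 RPKM. Of 3 CD4 T cell markers, with a summed level of 0.64 to 1.55 RPKM, Cd4 did not exceed 1.09 RPKM. In experiment 2, Cd4 went with cytokine from 0.75 to 0.81 RPKM to between 0.21 and 0.31 RPKM, while Foxp3, the factor of regulatory T cells, went from 0.034 to 0.043 RPKM (6 to 8 reads) to between 0.29 and 0.70 RPKM (49 to 130 reads). In experiment 1 Foxp3 stayed at or under 0.033 RPKM. The B cell list of 5 genes summed to 7.23 and 7.34 RPKM in unstimulated cells of experiment 1 and to 3.97 to 10.5 RPKM with cytokine. In experiment 2 it summed to 6.25 to 8.30 RPKM without cytokine and to 3.09 to 4.34 RPKM with it. Cd79b was the 1 gene of this list that averaged 1 RPKM or more in any group of libraries. The natural killer cell receptor Ncr1 did not exceed 0.20 RPKM, whereas Klre1 lay between 5.58 and 14.1 RPKM, and the list of 5 natural killer genes summed to 6.79 and 6.82 RPKM in unstimulated cells of experiment 1 and to 9.92 to 16.7 RPKM with cytokine, against 9.27 to 10.5 and 9.19 to 11.2 RPKM in experiment 2. Of the myeloid list, with 4 of 5 genes in the tables, Lyz2, Csf1r and Cd14 stayed at or under 0.23 RPKM, but Itgam moved with cytokine from 0.12 to 0.15 RPKM to between 2.76 and 14.03 RPKM in experiment 1, and from 0.53 to 0.57 RPKM to between 6.26 and 16.6 RPKM in experiment 2. The summed level of the 4 mast cell and basophil markers was 0.79 to 0.82 RPKM in unstimulated cells and 0.91 to 5.86 RPKM with cytokine in experiment 1, and 5.57 to 6.18 RPKM and 1.22 to 1.87 RPKM in experiment 2, with Kit the highest of them in each case. The part of these genes in the results for perforin and the granzymes was not tested. In bulk libraries, more cells expressing a gene and more RNA per cell cannot be told apart.

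The 10 genes lay on 3 chromosomes. Gzmb, Gzmc, Gzmf, Gzmg, Gzmd and Gzme shared a stretch of 144.7 kb on chromosome 14 (chr14:56117619-56262334, mm10/GRCm38), all on the minus strand, with Gzmn between Gzmg and Gzmf. Gzma (chr13:113093824-113100981) and Gzmk (chr13:113171630-113180965) lay within 87.1 kb on chromosome 13, and Prf1 (chr10:61297751-61304684) and Gzmm (chr10:79689020-79695261) lay 18.4 Mb apart on chromosome 10. Gzmn itself had at most 9 reads in any library of experiment 1 and at most 7 in experiment 2. The 9 protease genes of the cluster that are no members, among them the mast cell proteases and cathepsin G, summed to at most 0.33 RPKM in every library.

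The sequences before the start of 6 of the genes are printed because they set Gzmd and Gzmf, which resemble each other, beside Prf1, Gzma, Gzmb and Gzmk. They come from RefSeq promoters of GRCm38.p6, read in the direction of the gene, and each ends at the base before the gene's annotated extent: Prf1 chr10:61297586-61297750 (plus strand), Gzma chr13:113100982-113101231, Gzmb chr14:56262335-56262584, Gzmk chr13:113180966-113181215, Gzmd chr14:56132604-56132843 and Gzmf chr14:56211408-56211657 (all minus strand). Capitals mark matches to the letters TGTGGT (the core that RUNX factors recognise) and TCACACC (T-box factors), searched on both strands, together with TTCNNNGAA (STAT factors), in windows from 250 bases before to 50 bases after the start.
Prf1: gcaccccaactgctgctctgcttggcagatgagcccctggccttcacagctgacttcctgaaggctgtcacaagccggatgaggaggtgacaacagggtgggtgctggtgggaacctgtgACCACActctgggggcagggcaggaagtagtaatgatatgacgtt
Gzma: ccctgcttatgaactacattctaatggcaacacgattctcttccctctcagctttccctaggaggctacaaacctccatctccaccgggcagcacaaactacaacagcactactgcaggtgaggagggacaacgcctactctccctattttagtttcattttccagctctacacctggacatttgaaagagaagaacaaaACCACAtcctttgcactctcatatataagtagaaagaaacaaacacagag
Gzmb: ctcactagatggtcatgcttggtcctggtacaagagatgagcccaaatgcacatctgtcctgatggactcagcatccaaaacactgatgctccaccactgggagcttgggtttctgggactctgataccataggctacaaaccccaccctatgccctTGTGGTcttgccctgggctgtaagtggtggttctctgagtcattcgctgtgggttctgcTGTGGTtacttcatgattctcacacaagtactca
Gzmk: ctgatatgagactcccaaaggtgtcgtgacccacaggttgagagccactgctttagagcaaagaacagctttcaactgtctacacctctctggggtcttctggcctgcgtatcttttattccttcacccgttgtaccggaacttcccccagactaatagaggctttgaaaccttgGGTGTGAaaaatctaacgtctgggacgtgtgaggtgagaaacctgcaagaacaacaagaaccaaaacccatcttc
Gzmd: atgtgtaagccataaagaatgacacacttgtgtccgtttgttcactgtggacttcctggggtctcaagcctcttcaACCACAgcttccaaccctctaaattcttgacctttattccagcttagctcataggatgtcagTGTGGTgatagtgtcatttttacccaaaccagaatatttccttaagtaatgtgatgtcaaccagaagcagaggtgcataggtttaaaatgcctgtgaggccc
Gzmf: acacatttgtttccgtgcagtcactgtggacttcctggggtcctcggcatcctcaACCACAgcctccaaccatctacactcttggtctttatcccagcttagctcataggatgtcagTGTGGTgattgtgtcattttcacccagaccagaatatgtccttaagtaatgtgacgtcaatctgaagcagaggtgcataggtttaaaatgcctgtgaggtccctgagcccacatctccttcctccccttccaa

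TGTGGT or its reverse complement was found for 9 of the 10 genes, Gzmk being the exception, where 16.8% of 32851 mouse promoter windows held it. In Gzmc, Gzmd, Gzme, Gzmf and Gzmg it occurred as a pair, first on the reverse and then on the forward strand, 62 bases apart in 4 of them and 66 in Gzmc. Gzmb carried both of its copies on the forward strand, 93 and 34 bases before the start. TCACACC was found for Gzmk, 75 bases before the start, and in the second of the 2 windows listed for Gzmm, against 3.98% of all windows. TTCNNNGAA was found for Gzmb, 37 bases after the start and so outside the printed stretch, and for Gzmm, against 8.3%. No match of one motif overlapped one of another. These are matches of letters and not sites shown to be bound. Over the 250 bases before the start, Gzmc to Gzmg were 70.2% to 94.8% identical in the 10 pairs among them, and the 35 other pairs of members' windows compared were 43.8% to 50.7% identical. The starts used for Gzmc, Gzmd and Prf1, and the second for Gzmm, lie inside the gene's annotated extent. All of the bases compared for Gzmc, and some of those for Gzmd and Prf1, were therefore within the gene.

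The transcripts repeat this division. Of all stretches of 50 bases, none in Prf1, Gzma, Gzmb, Gzmk and Gzmm occurred in the transcript of another gene, but 4.14% did in Gzmc, 21.9% in Gzmd, 20.6% in Gzme, 19.4% in Gzmf and 19.8% in Gzmg, in one another and in Gzmn, and for Gzmf first of all in Gm4022 (12.1% of its stretches). Stretches were searched on both strands. Of the exonic bases of Gzmf, 16.4% overlap Gm4022 on the opposite strand, so this share and that of the stretches can count the same bases. Whether strand was used in counting is not given in the sources used here. Values of Gzmc to Gzmg are therefore uncertain, since reads from the shared stretches could have been assigned to either gene or dropped.

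Gzmb was the most abundant of the 10 genes in every library. In experiment 1 it was at 1669 and 1690 RPKM in unstimulated cells, which ranked it 48th of all genes, and at 4263 and 4292 RPKM with 1 nM 21h10, ranked 3rd and 2nd. Unstimulated cells of experiment 2 held less of it, 651 and 657 RPKM, and rose to 4090 and 3786 RPKM with 100 nM 21h10. The 2 other abundant products were Gzma, from 38.0 RPKM in an unstimulated library to 3818 RPKM in one with 100 nM 21h10, and Prf1, from 6.51 to 111 RPKM. Gzmk did not exceed 20.7 RPKM, Gzmc 47.4, Gzmd 8.86, Gzmf 4.11, Gzme 3.19, Gzmg 1.46 and Gzmm 0.88 RPKM in any library.

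**Figure D1:**
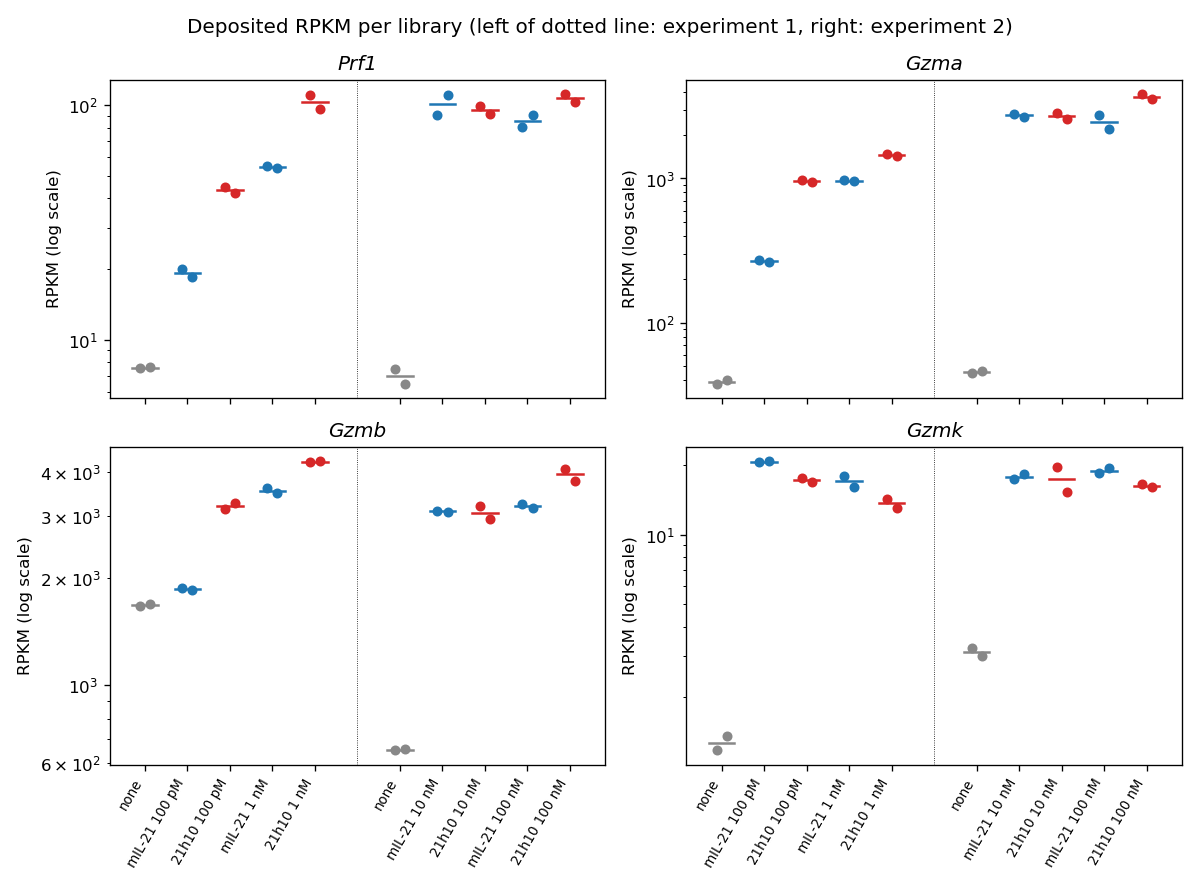
Deposited RPKM (log axis) of Prf1, Gzma, Gzmb and Gzmk in each of the 20 libraries, 1 point per library, with a line at the mean of the duplicates; grey is unstimulated, blue mIL-21 and red 21h10. Gzma spans 38.0 to 3818 RPKM, and Gzmk lies at 13.04 to 20.7 RPKM in all treated libraries.

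The cytokines raised Gzma, Prf1 and Gzmk at every dose. All values below are log2 fold changes with their standard error from edgeR's quasi-likelihood test on counts of the 10 libraries of an experiment, and a gene was called at a Benjamini-Hochberg adjusted p under 0.05 over all genes tested (13974 in experiment 1, 13772 in experiment 2, the 10 members included in both). Calls were common: against unstimulated cells, 77.7% of all genes were called with 100 pM mIL-21, 81.6% with 100 pM 21h10, 80.1% with 1 nM mIL-21 and 80.3% with 1 nM 21h10. Against these shares, 6, 8, 7 and 8 of the 10 members were called. In the same order, 3, 6, 5 and 6 members were higher (38.3%, 40.2%, 39.9% and 38.3% of all genes) and 3, 2, 2 and 2 lower (39.4%, 41.3%, 40.3% and 42.1%), so the number called does not set the members apart, and the sizes and directions are what is described.

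Gzma had the largest increase of the members except with 100 pM mIL-21. It stood at 38.0 and 40.1 RPKM in unstimulated cells, at 273 and 262 with 100 pM mIL-21, at 975 and 945 with 100 pM 21h10, at 976 and 954 with 1 nM mIL-21 and at 1488 and 1423 RPKM with 1 nM 21h10. Every treated library was above both unstimulated ones, and the libraries of 100 pM 21h10 and 1 nM mIL-21 overlapped. Among all genes, 48.3%, 43.8%, 43.3% and 40.1% had both treated libraries above both unstimulated ones, in the same order of groups. The log2 fold changes were 2.70 ± 0.05, 4.65 ± 0.06, 4.67 ± 0.06 and 5.30 ± 0.06 in this order, the last a rise of 39.5-fold.

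Prf1 rose in the same order of groups, with no overlap between any of them. Of all genes, 22.3% lay wholly higher with 21h10 than with mIL-21 at 100 pM and 24% at 1 nM. With 100 pM 21h10, 14.9% lay wholly below 1 nM mIL-21. Unstimulated libraries had 7.55 and 7.66 RPKM, those with 100 pM mIL-21 20.1 and 18.5, those with 100 pM 21h10 44.5 and 42.1, those with 1 nM mIL-21 54.9 and 53.8, and those with 1 nM 21h10 110 and 95.7 RPKM. The log2 fold changes were 1.27 ± 0.07, 2.53 ± 0.07, 2.87 ± 0.07 and 3.84 ± 0.07, which put the rise with 1 nM 21h10 at 14.3-fold.

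Gzmb, high before any cytokine, rose by less. Its 2 libraries with 100 pM mIL-21, at 1877 and 1855 RPKM, were above the unstimulated ones, as held for 48.3% of all genes. The log2 fold change of 0.07 ± 0.04 was not called (edgeR adjusted p = 0.14). That call depended on the processing, since DESeq2 gave 0.09 with an adjusted p of 0.032 and library sizes from mapped reads gave 0.15 with an edgeR adjusted p of 0.0047. With 100 pM 21h10 it was at 3147 and 3267 RPKM (log2 fold change 0.96 ± 0.04), with 1 nM mIL-21 at 3615 and 3479 (1.12 ± 0.04) and with 1 nM 21h10 at 4263 and 4292 RPKM (1.43 ± 0.05).

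Gzmk, a trypsin-like granzyme as is Gzma, had the means of its treated groups in another order. It was at 1.17 and 1.36 RPKM in unstimulated cells and highest with 100 pM mIL-21, at 20.5 and 20.7 RPKM (log2 fold change 3.96 ± 0.10). It followed at 17.5 and 16.9 RPKM with 100 pM 21h10 (3.81 ± 0.10), 17.9 and 16.1 with 1 nM mIL-21 (3.80 ± 0.10) and 14.2 and 13.04 RPKM with 1 nM 21h10 (3.53 ± 0.11). With 100 pM mIL-21 the rise of Gzmk, 15.6-fold, exceeded that of Gzma, 6.49-fold.

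Gzmf was called lower at both doses of either cytokine, and Gzmm in all but 1 of these groups. Gzmf was at 3.57 and 4.11 RPKM in unstimulated cells and at 1.27 to 1.59 RPKM in all 8 treated libraries, with log2 fold changes of -1.48 ± 0.16 (100 pM mIL-21), -1.29 ± 0.14 (100 pM 21h10), -1.43 ± 0.16 (1 nM mIL-21) and -1.32 ± 0.16 (1 nM 21h10), all called. Gzmm, at 0.60 and 0.67 RPKM without cytokine, was not called with 100 pM mIL-21 (0.88 and 0.58 RPKM, 0.15 ± 0.26) and fell with 100 pM 21h10 (0.25 and 0.20 RPKM, -1.49 ± 0.29), 1 nM mIL-21 (0.34 and 0.21 RPKM, -1.19 ± 0.31) and 1 nM 21h10 (0.14 and 0.18 RPKM, -1.84 ± 0.34).

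The remaining members of the chromosome 14 group had no common direction. Gzmd was at 3.33 and 3.95 RPKM without cytokine and was called higher with 1 nM 21h10, at 8.14 and 8.86 RPKM (1.33 ± 0.26), and with 1 nM mIL-21, at 7.73 and 6.26 RPKM (0.99 ± 0.27). It was also called higher with 100 pM 21h10, at 5.96 and 6.01 RPKM (0.75 ± 0.26), but not without the first unstimulated library (0.64, edgeR adjusted p = 0.11). With 100 pM mIL-21 it was called lower (-0.92 ± 0.34), but its libraries were at 0.69 and 3.54 RPKM, and without the first of them the log2 fold change was -0.10 (edgeR adjusted p = 0.62), without the second -2.47, and without the second unstimulated library -0.83 (edgeR adjusted p = 0.067). DESeq2 called none of these 4 changes of Gzmd.

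Gzme was called higher with 1 nM 21h10 (0.79 and 0.76 RPKM without cytokine, 1.54 and 1.28 with it, 0.93 ± 0.21) and lower with 100 pM mIL-21 (0.42 and 0.47 RPKM, -0.89 ± 0.26). The second call was lost without the first library of 100 pM mIL-21 (-0.81, edgeR adjusted p = 0.051). Gzmg was called once, higher with 100 pM 21h10 (0.45 and 0.38 RPKM without, 0.55 and 0.75 RPKM with cytokine, 0.68 ± 0.26), a call that did not outlast leaving out the second library of 100 pM 21h10 or either unstimulated one.

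Gzmc was called in none of the 10 comparisons of experiment 1, and its duplicates lay far apart in 3 of the 4 treated groups. DESeq2 called it in 0 of them, the edgeR fit without a filter on low counts in 9, and the fits with mapped-read library sizes or on the compared groups alone in 2 each. It was at 18.5 and 17.5 RPKM in unstimulated cells and at 36.2 and 42.5 RPKM with 100 pM 21h10 (1.15 ± 0.53, edgeR adjusted p = 0.054). Its libraries were at 24.8 and 9.48 RPKM with 100 pM mIL-21, at 36.1 and 8.57 RPKM with 1 nM mIL-21 and at 8.17 and 47.4 RPKM with 1 nM 21h10. Among 10651 genes, 8, 1 and 0 genes differed more between these pairs of duplicates, in this order.

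**Figure D2:**
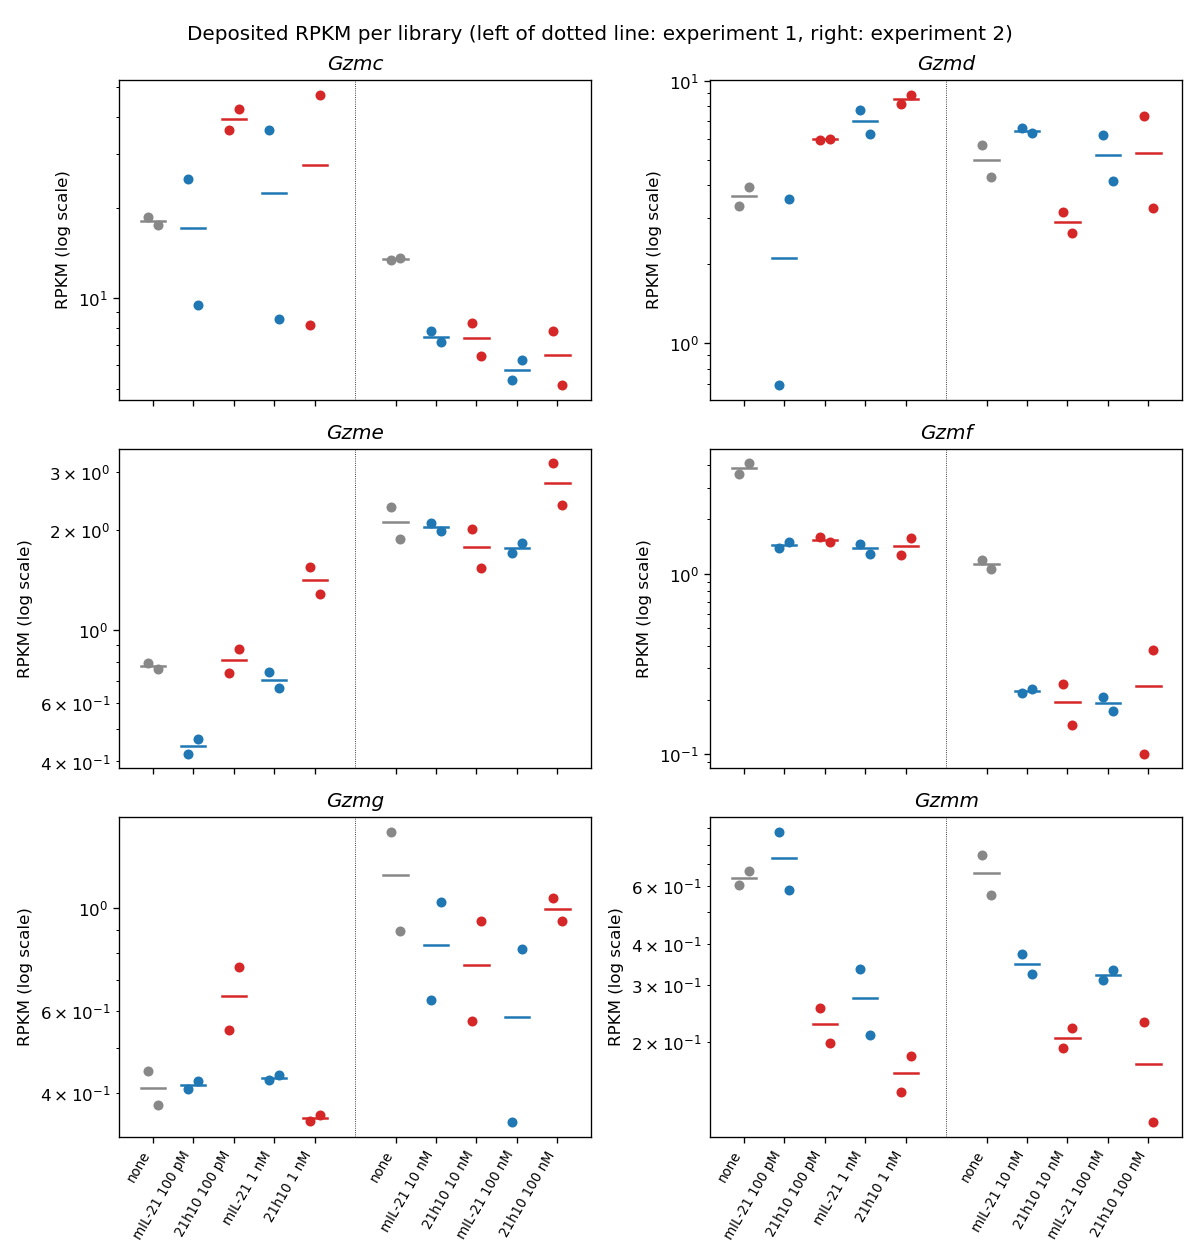
Deposited RPKM (log axis) of Gzmc, Gzmd, Gzme, Gzmf, Gzmg and Gzmm in each of the 20 libraries, 1 point per library, with a line at the mean of the duplicates; grey is unstimulated, blue mIL-21 and red 21h10. Gzmf lies lower in all treated libraries than in the unstimulated ones of the same experiment. Per treated group, 41.7% to 49.6% of all genes lie wholly lower in experiment 1 and 48.1% to 57% in experiment 2. The duplicates of Gzmc lie far apart in 3 groups of experiment 1.

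At the higher doses of experiment 2, Gzma, Prf1 and Gzmk again rose and Gzmf again fell in every group, Gzmb now rose in all of them, and Gzmc was called lower. Of all genes, 46.2% were called with 10 nM mIL-21, 50.1% with 10 nM 21h10, 46.2% with 100 nM mIL-21 and 50.8% with 100 nM 21h10, and of the members 6, 7, 6 and 8. In this order, 4, 4, 4 and 5 members were higher (22.5%, 25.2%, 22.5% and 25.0% of all genes) and 2, 3, 2 and 3 lower (23.7%, 24.9%, 23.7% and 25.8%). Gzma, Gzmb, Prf1 and Gzmk rose and Gzmc and Gzmf fell in all 4 comparisons, which share their unstimulated libraries.

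Gzma was at 45.1 and 46.2 RPKM in unstimulated cells, at 2796 and 2670 with 10 nM mIL-21, at 2848 and 2596 with 10 nM 21h10, at 2732 and 2209 with 100 nM mIL-21 and at 3818 and 3570 RPKM with 100 nM 21h10. The first 3 treated groups overlapped and the last lay above them. Of all genes, 19.1% lay wholly higher with 100 nM 21h10 than with 100 nM mIL-21, and 21% than with 10 nM 21h10. The log2 fold changes were 6.08 ± 0.12, 6.17 ± 0.12, 5.98 ± 0.11 and 6.64 ± 0.12, the last a rise of 99.6-fold.

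Gzmb, at 651 and 657 RPKM without cytokine, was at 3110 and 3091 RPKM with 10 nM mIL-21, at 3196 and 2937 with 10 nM 21h10, at 3246 and 3162 with 100 nM mIL-21 and at 4090 and 3786 RPKM with 100 nM 21h10. Its log2 fold changes of 2.42 ± 0.08, 2.50 ± 0.08, 2.51 ± 0.08 and 2.89 ± 0.08 started from a lower level than in experiment 1, and the treated libraries lay at 2937 to 4090 RPKM, against 1855 to 4292 RPKM in experiment 1. Prf1 went from 7.49 and 6.51 RPKM to between 80.6 and 111 RPKM in the 8 treated libraries, with log2 fold changes of 4.02 ± 0.11, 4.04 ± 0.11, 3.84 ± 0.11 and 4.23 ± 0.11 in the same order.

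Gzmk was at 3.23 and 3.003 RPKM without cytokine and at 15.3 to 19.5 RPKM in the 8 treated libraries. Its log2 fold changes of 2.69 ± 0.14, 2.75 ± 0.14, 2.82 ± 0.14 and 2.68 ± 0.14 were all smaller than that of Prf1 in the same comparison. In deposited RPKM, the levels with cytokine lay within those of experiment 1. Scaled by TMM, these levels were at 22.5 to 28.1 RPKM in experiment 2 and at 16.5 to 23.4 RPKM in experiment 1.

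Gzmf fell from 1.19 and 1.07 RPKM (53 and 44 reads) to between 0.10 and 0.38 RPKM (4 to 14 reads), with log2 fold changes of -2.14 ± 0.60, -2.26 ± 0.63, -2.32 ± 0.62 and -1.94 ± 0.61. Each of these calls was lost on leaving out 1 library: either one of 10 nM mIL-21 or the first unstimulated one, the second of 10 nM 21h10, the second of 100 nM mIL-21, and the first of 100 nM 21h10 or either unstimulated one. The values were then between -2.22 and -1.26, with edgeR adjusted p between 0.056 and 0.14. Without the second library of 100 nM 21h10 the value at that dose was -3.19. Gzmc, at 13.4 and 13.6 RPKM without cytokine and at 5.15 to 8.29 RPKM with it, fell with log2 fold changes of -0.67 ± 0.18, -0.61 ± 0.18, -0.995 ± 0.18 and -0.76 ± 0.18. The calls with 10 nM were lost without the second library of 10 nM mIL-21 (-0.58, edgeR adjusted p = 0.057) or of 10 nM 21h10 (-0.45, edgeR adjusted p = 0.12).

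Gzmm was at 0.75 and 0.57 RPKM without cytokine. It was called lower with 21h10, at 10 nM (0.19 and 0.22 RPKM, -1.38 ± 0.52) and at 100 nM (0.23 and 0.11 RPKM, -1.61 ± 0.53), and not with mIL-21 at 10 nM (0.37 and 0.32 RPKM, -0.73 ± 0.48) or 100 nM (0.31 and 0.33 RPKM, -0.80 ± 0.49). The libraries of 21h10 lay below those of mIL-21 at both doses. In deposited RPKM this held for 37.8% of all genes at 10 nM and 38.7% at 100 nM. The difference of Gzmm between the cytokines was not called (-0.65 ± 0.53 at 10 nM and -0.81 ± 0.56 at 100 nM, edgeR adjusted p = 0.73 and 0.41). The call at 10 nM was lost on leaving out any 1 of 8 libraries of experiment 2, and that at 100 nM without the first unstimulated library or the second of 100 nM 21h10. Gzme was called higher with 100 nM 21h10 (2.35 and 1.88 RPKM without, 3.19 and 2.38 RPKM with it, 0.70 ± 0.25), which was lost without the first library of 100 nM 21h10 (0.49, edgeR adjusted p = 0.20) and without the second unstimulated one (0.57, edgeR adjusted p = 0.12). Gzmd and Gzmg were called in none of the 4 comparisons.

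**Figure D3:**
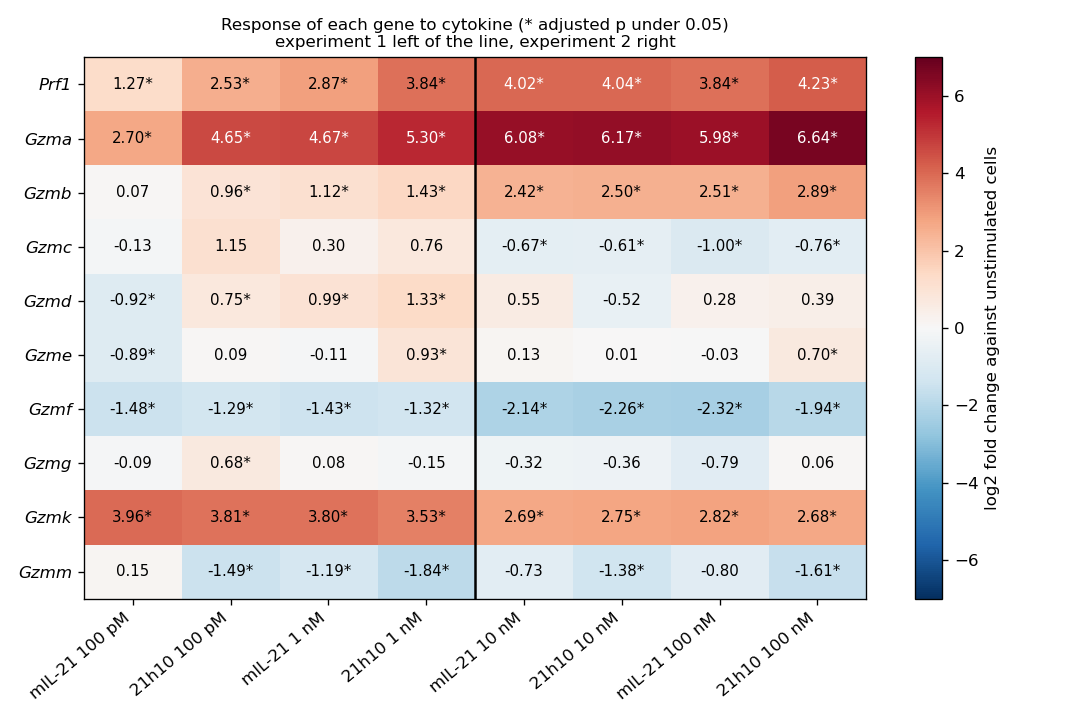
log2 fold change of each of the 10 genes against the unstimulated cells of the same experiment, 1 column per treatment, with the value in each cell and an asterisk at an adjusted p under 0.05. Gzma, Prf1 and Gzmk are positive and Gzmf is negative in all 8 columns, and Gzmb ranges from 0.07 to 2.89.

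The next comparison asked whether 21h10 and mIL-21 differed at the same dose. At 100 pM, 7 members were called (38.6% of all genes), 6 higher with 21h10 (19.6%) and 1 lower (19.0%). The differences in log2 were 1.95 ± 0.05 for Gzma, 1.27 ± 0.06 for Prf1 and 0.88 ± 0.04 for Gzmb, with no overlap between the duplicates. In deposited RPKM, 22.3% of all genes had both libraries of 21h10 above both of mIL-21, and 50.2% had them below. Gzmd (1.68 ± 0.32), Gzme (0.98 ± 0.26) and Gzmg (0.77 ± 0.29) were called higher and Gzmm lower (-1.64 ± 0.30). DESeq2 did not call Gzmd, whose value was 0.85 without the first library of 100 pM mIL-21 and 3.22 without the second. The call of Gzme was lost without the first library of 100 pM mIL-21 (0.89, edgeR adjusted p = 0.075) and without the second of 100 pM 21h10 (0.88, edgeR adjusted p = 0.061), and that of Gzmg was lost in 9 of 10 fits that left out 1 library of experiment 1. The call of Gzmg also failed with DESeq2, without a filter, with mapped-read library sizes, with the replicate block and on the compared groups alone. Gzmk, lower with 21h10 by 0.16 ± 0.07, was not called (edgeR adjusted p = 0.10).

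At 1 nM, 5 members were called (37.7% of all genes), 4 higher with 21h10 (19.6%) and 1 lower (18.1%). The difference was 0.97 ± 0.06 for Prf1, the largest among Prf1, Gzma, Gzmb and Gzmk, followed by Gzma (0.64 ± 0.05) and Gzmb (0.32 ± 0.04), and Gzme was higher by 1.03 ± 0.23. Gzmk was lower with 21h10 by 0.27 ± 0.08 (log2 fold change -0.27, edgeR adjusted p = 0.012), but the call was lost without the first library of 1 nM mIL-21 (-0.22, edgeR adjusted p = 0.072) or the second of 1 nM 21h10 (-0.22, edgeR adjusted p = 0.092), and DESeq2 did not make it.

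The difference between the cytokines was itself smaller at 1 nM than at 100 pM for 4 members (10.0% of all genes were called in this direction, 18.4% in either). The change in the log2 difference was -1.31 ± 0.07 for Gzma, -0.57 ± 0.06 for Gzmb, -0.30 ± 0.09 for Prf1 and -1.34 ± 0.42 for Gzmd. DESeq2 did not call that of Gzmd, limma that of Gzmd or Prf1, and library sizes from mapped reads that of Prf1. The call of Prf1 was lost without the second library of 1 nM mIL-21 (-0.28, edgeR adjusted p = 0.054), of 100 pM mIL-21 (-0.25, edgeR adjusted p = 0.13) or of 1 nM 21h10 (-0.22, edgeR adjusted p = 0.064), or the first of 100 pM 21h10 (-0.22, edgeR adjusted p = 0.14). For Gzmd the value was -0.51 without the first library of 100 pM mIL-21 (edgeR adjusted p = 0.11) and -2.88 without the second, and the call was lost also without the first of 1 nM mIL-21 (-1.21, edgeR adjusted p = 0.061) or without either of 100 pM 21h10 (-1.31 and -1.37, edgeR adjusted p = 0.082 and 0.075).

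Set beside 10 times as much mIL-21, 100 pM 21h10 gave 1 called member (0.737% of all genes). Prf1 was lower with 100 pM 21h10 than with 1 nM mIL-21 by 0.34 ± 0.06 (log2 fold change -0.34, edgeR adjusted p = 0.0079), which was lost without the second library of 100 pM 21h10 (-0.27, edgeR adjusted p = 0.31). The differences of Gzma (-0.02 ± 0.05), Gzmb (-0.16 ± 0.04) and Gzmk (0.01 ± 0.07) were not called, and 2 standard errors on either side spanned -0.12 to 0.08 for Gzma, -0.25 to -0.07 for Gzmb and -0.14 to 0.16 for Gzmk. For Gzmb, DESeq2 did call a difference of -0.15 (adjusted p = 0.019).

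Raising the dose from 100 pM to 1 nM called 6 members with mIL-21 (34.5% of all genes), 5 higher (17.9%) and 1 lower (16.6%), and 6 with 21h10 (39.2%), 4 higher (20.1%) and 2 lower (19.1%). Gzma rose by 1.97 ± 0.05 with mIL-21 and by 0.66 ± 0.05 with 21h10, Gzmb by 1.04 ± 0.04 and 0.47 ± 0.04, and Prf1 by 1.61 ± 0.06 and 1.31 ± 0.06. Gzmk was lower at the higher dose of 21h10 (-0.28 ± 0.08), a call lost without the first library of 100 pM 21h10 (-0.22, edgeR adjusted p = 0.078) or the second of 1 nM 21h10 (-0.23, edgeR adjusted p = 0.070), and with mIL-21 its value of -0.16 ± 0.08 was not called, although library sizes from mapped reads (-0.28) and limma did call it. Gzmd was called higher with mIL-21 (1.91 ± 0.33, and 1.08 and 3.45 without the first and the second library of 100 pM mIL-21). Gzme was called higher with both, by 0.78 ± 0.29 with mIL-21, which was lost with DESeq2, without a filter, with mapped-read library sizes, with the replicate block, on the compared groups alone and in 8 of 10 fits that left out 1 library, and by 0.84 ± 0.21 with 21h10. Gzmm was called lower with mIL-21 (-1.34 ± 0.32), but not without the first library of 100 pM mIL-21 (-1.01, edgeR adjusted p = 0.092) or the second of 1 nM mIL-21 (-1.06, edgeR adjusted p = 0.058). Gzmg was called lower with 21h10 (-0.83 ± 0.30), a call lost with DESeq2, on the compared groups alone, and without the second library of 100 pM 21h10 (-0.60, edgeR adjusted p = 0.28) or either of 1 nM 21h10 (-0.79 and -0.88, edgeR adjusted p = 0.12 and 0.14).

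At 10 nM, no member was called between the cytokines (0.00726% of all genes, 1 gene), and none by DESeq2. At an unadjusted p under 0.05 there was 1, Gzmd, with 3.15 and 2.64 RPKM for 21h10 against 6.58 and 6.30 for mIL-21 (-1.07 ± 0.28, edgeR adjusted p = 0.41). The log2 differences were 0.08 ± 0.09 for Gzma, 0.07 ± 0.08 for Gzmb, 0.02 ± 0.09 for Prf1 and 0.06 ± 0.12 for Gzmk. Of these 4, Gzmk had the widest interval of 2 standard errors on either side, from -0.19 to 0.31, and those of Gzmf (-1.52 to 1.28), Gzmm (-1.72 to 0.42) and Gzmg (-0.97 to 0.89) were wider.

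At 100 nM, 3 members were called, all higher with 21h10 (8.53% of all genes in either direction, 4.02% higher and 4.52% lower). Gzma differed by 0.66 ± 0.09, and this call was kept in all fits that left out 1 library. Gzmb (0.37 ± 0.08) and Prf1 (0.40 ± 0.09) differed less. The call of Gzmb was lost without the first library of 100 nM mIL-21 (0.37, edgeR adjusted p = 0.056) or of 100 nM 21h10 (0.34, edgeR adjusted p = 0.083) or the second of 100 nM 21h10 (0.39, edgeR adjusted p = 0.059). The call of Prf1 was lost without the same 3 libraries (0.29, 0.36 and 0.41, edgeR adjusted p = 0.24, 0.12 and 0.095).

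Raising the dose from 10 to 100 nM called no member with mIL-21 (0% of all genes), none at an unadjusted p under 0.05 and none by DESeq2. Gzma was at -0.11 ± 0.09, Gzmb at 0.09 ± 0.08, Prf1 at -0.19 ± 0.09 and Gzmk at 0.13 ± 0.12. With 21h10, 2 members were called (5.33% of all genes), Gzma with 0.47 ± 0.09 and Gzmb with 0.39 ± 0.08. Both calls were lost without the second library of 10 nM 21h10 (0.42 and 0.34, edgeR adjusted p = 0.10 and 0.097) and without the first (0.45 and 0.36, edgeR adjusted p = 0.085 and 0.10) or the second of 100 nM 21h10 (0.49 and 0.41, edgeR adjusted p = 0.057 for either). The difference between the cytokines grew from 10 to 100 nM for Gzma alone among the calls (0.58 ± 0.13, edgeR adjusted p = 0.049; 0.922% of all genes called), and the call was lost without any 1 of 7 of the 8 treated libraries, all but the first of 100 nM mIL-21, with values of 0.45 to 0.64.

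**Figure D4:**
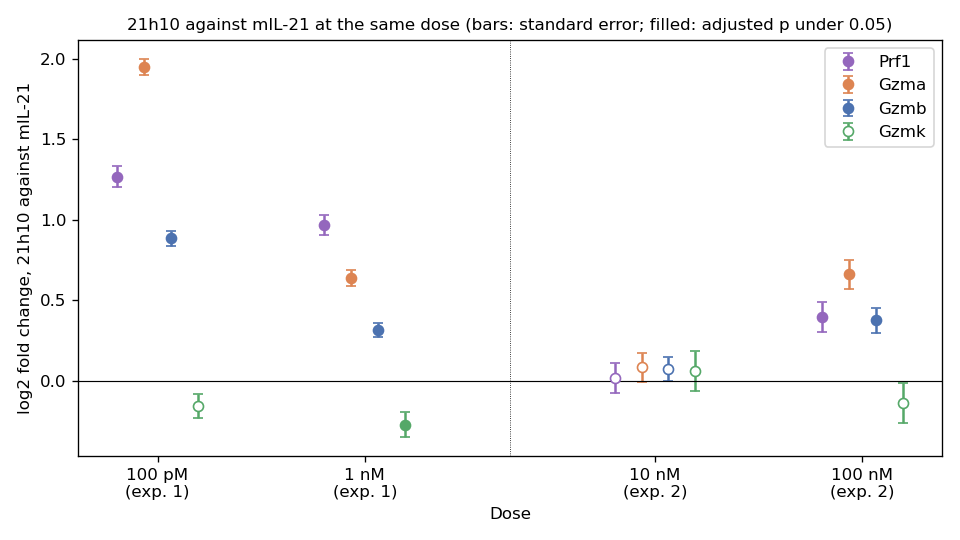
Difference in log2 between 21h10 and mIL-21 given at equal dose, for Prf1, Gzma, Gzmb and Gzmk, with the standard error as bars, filled where the adjusted p was under 0.05. Gzma falls from 1.95 at 100 pM to 0.64 at 1 nM and is at 0.08 at 10 nM and 0.66 at 100 nM, and Gzmk is near or below 0 at each dose.

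With these changes, the make-up of the family shifted from Gzmb towards Gzma. Per length, Gzmb made up 95.7% ± 0.059 (SD, n = 2) of the summed RPKM of the 10 genes in unstimulated cells of experiment 1, 85.0% ± 0.56 with 100 pM mIL-21, 75.0% ± 0.84 with 100 pM 21h10, 76.9% ± 0.16 with 1 nM mIL-21 and 72.6% ± 0.45 with 1 nM 21h10. Gzma made up 2.23% ± 0.063, 12.2% ± 0.15, 22.5% ± 0.85, 20.9% ± 0.27 and 24.7% ± 0.74 in the same groups. The sum itself went from 1754 ± 17 to 5889 ± 8.2 RPKM between unstimulated cells and 1 nM 21h10.

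In experiment 2, Gzmb went from 89.2% ± 0.29 in unstimulated cells to 50.7% ± 0.15 with 100 nM 21h10, and Gzma from 6.23% ± 0.080 to 47.5% ± 0.20, so that Gzma was at 0.938 ± 0.0066 of the level of Gzmb. With 100 nM mIL-21 the duplicates were further apart, at 44.9% and 40.2% for Gzma. The sum went from 733 ± 2.6 to 7771 ± 402 RPKM, and in reads the family took 0.128% of those on genes without cytokine and 1.33% with 100 nM 21h10. Among all genes by RPKM, Gzma moved from rank 1400 and 1293 to rank 3 in both libraries with 100 nM 21h10.

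**Figure D5:**
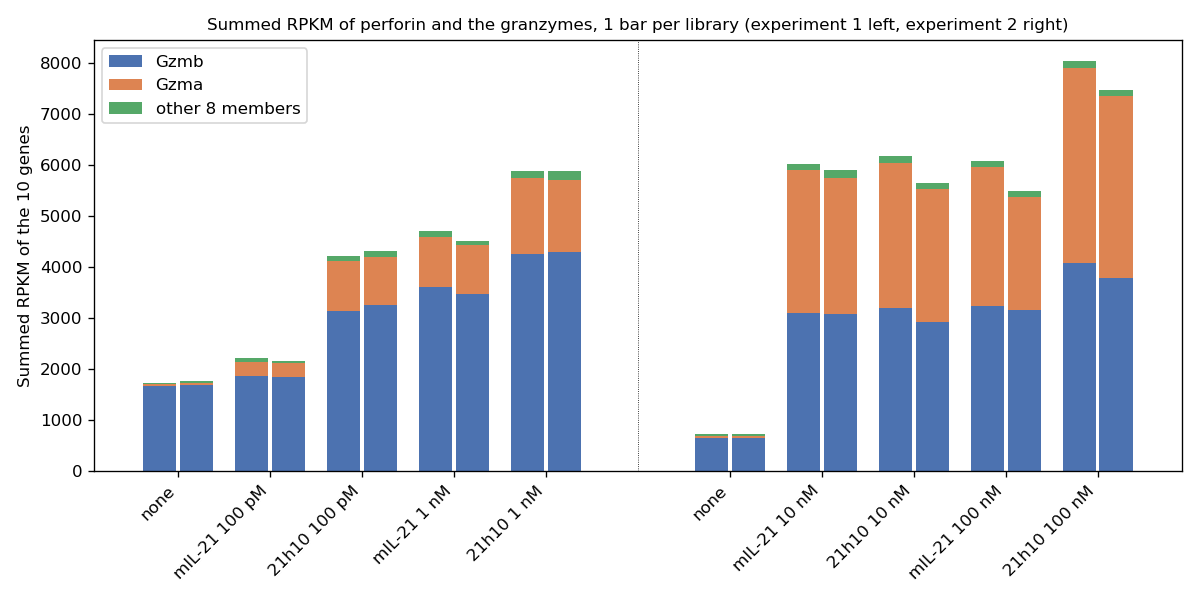
Summed RPKM of the 10 genes, 1 bar per library on a linear axis from 0, divided into Gzmb, Gzma and the other 8 genes. The bars rise from 1743 and 1766 RPKM to 5895 and 5883 RPKM in experiment 1 and from 731 and 735 RPKM to 8055 and 7487 RPKM in experiment 2, with Gzma the part that grows most in proportion.

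Genes for the proteins that process, store and release the granule's cargo were taken from a list of 18, of which 17 were tested. In experiment 1, 10 were called higher and 4 lower with 100 pM mIL-21 (38.3% and 39.4% of all genes), 12 and 3 with 100 pM 21h10 (40.2% and 41.3%), 12 and 3 with 1 nM mIL-21 (39.9% and 40.3%), and 12 and 4 with 1 nM 21h10 (38.3% and 42.1%). With 1 nM 21h10 their median log2 fold change was 1.27, against -0.04 over all genes tested. Ctsw, a cysteine protease of cytotoxic cells, rose by 2.84, Lamp2, a lysosomal membrane protein, by 2.55, Stx11, needed for granule fusion, by 1.96, Nkg7, a granule membrane protein, by 1.77, and Rab27a, which docks granules, by 1.74. Ctsc, the peptidase that activates granzymes by removing a dipeptide, fell (-0.65), and so did Lamp1 (-0.22), M6pr (-0.11) and Vamp8 (-0.77).

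In experiment 2, 13 of the 17 were called higher with 10 nM mIL-21, 12 with 10 nM 21h10, 11 with 100 nM mIL-21 and 9 with 100 nM 21h10. The shares of all genes were 22.5%, 25.2%, 22.5% and 25.0%. In each group 0 were called lower (23.7%, 24.9%, 23.7% and 25.8% of all genes). Their medians were 0.46, 0.35, 0.39 and 0.30, against -0.01, -0.002, -0.01 and -0.02 over all genes. With 100 nM 21h10, Srgn, the proteoglycan that binds granzymes in the granule, rose by 1.58. Between the cytokines, 10 were higher and 2 lower with 21h10 at 100 pM (19.6% and 19.0% of all genes), 9 and 3 at 1 nM (19.6% and 18.1%), 0 and 0 at 10 nM, and 3 and 2 at 100 nM (4.02% and 4.52%).

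The 3 serpins listed as inhibitors of granzymes moved apart. With 1 nM 21h10, Serpinb6b rose by 0.67 while Serpinb9 (-0.53) and Serpinb9b (-2.34) fell. All 3 were lower with 1 nM 21h10 than with 1 nM mIL-21, at -0.49, -0.69 and -1.48 (18.1% of all genes). At 100 pM, 1 of the 3 was called higher with 21h10 and 0 lower (19.6% and 19.0% of all genes). At 10 and 100 nM, 0 were called in either direction (0.00726% and 8.53% of all genes). With 100 nM 21h10 Serpinb9 was higher (0.86) and Serpinb6b lower (-0.28) than in unstimulated cells. Of 4 death ligands, Tnfsf10, which encodes TRAIL, rose with 1 nM 21h10 (1.12) and 100 nM 21h10 (0.98), Fasl was at 0.16, not called, and at 0.39, called, and Lta fell (-1.65 and -2.61). Tnf fell with 1 nM 21h10 (-1.98) and was at -0.35 with 100 nM 21h10, which was not called.

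After the mean of each experiment was subtracted, the log2 levels across the 20 libraries of Prf1 and Gzma had a Pearson correlation of 0.99, Prf1 and Gzmb 0.97, Gzma and Gzmb 0.96, and Gzmb and Gzmk 0.72. Gzmf ran against Gzma (-0.87), Gzmk (-0.86) and Prf1 (-0.83), and Gzmm against Prf1 (-0.81). Gzmd and Gzme correlated with each other at 0.70, and both share sequence. Gzmc had no correlation above 0.32 with another member. Among 10517 other genes, the pattern of Prf1 was most like those of Zswim6, P2ry14 and Hlx (0.99 each), that of Gzma like Gpx8 and F2r (0.99 each), that of Gzmb like Satb1, Nab1 (0.99 each) and Arf6 (0.98), and that of Gzmk like Cd7 (0.99) and Cxcr6 (0.98). Gzmf was most like Senp8 (0.95), BC055324 (0.94) and Coq3 (0.93), and Gzmm like Ppcdc (0.95), Irf9 (0.92) and Ninj2 (0.91). Gzme was most like Asns (0.95), Cdh17 (0.93) and Aldh18a1 (0.92), and Gzmd less closely like Atf5 (0.77), Vav2 and Mthfd2 (0.76 each). For Gzmg (Ptpn23 at 0.75, Flywch2 at 0.70, Mir1982 at 0.68) and Gzmc (Chmp5 at 0.63, Rab8b at 0.62, Specc1l at 0.58) no gene came closer. These values are descriptions, since the libraries share groups and experiments and are not independent points.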

How the data were processed

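RNA-sequencing of 20 libraries was analysed, in 10 groups of duplicates taken from the sample labels. According to the paper and the submitters' processing notes, the authors aligned the reads with TopHat2 2.0.11 to mm10 (GRCm38) and counted them on the exons of RefSeq transcripts; the deposited counts are raw whole numbers per transcript. RPKM, also deposited, is the authors' own scaling of each count by transcript length and mapped reads. The counting tool's settings, the use of strand and the annotation version are not given in the sources used here.

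Each symbol was represented by its longest transcript; each of the 10 members had 1. Genes were kept by filterByExpr (least count 10, least total count 15) and scaled by TMM. They were tested with glmQLFit and glmQLFTest (R 4.3.3, edgeR 4.0.16) in a fit of the 10 libraries of an experiment by group alone, with Benjamini-Hochberg adjustment over all genes and a threshold of 0.05. The standard error is the absolute log2 fold change divided by the square root of F. Alternatives were DESeq2 1.42.0, limma 3.58.1 on log2(RPKM + 1), no filter, library sizes from mapped reads, the compared groups alone, another transcript, a replicate block and each library left out. The limma fit held only genes with at least 1 RPKM in at least 2 libraries of an experiment. Deposited RPKM is scaled by mapped reads, so ratios of RPKM differ from the TMM-scaled fold changes. The procedure was tested on simulated counts. Precision is set by duplicates. The members were given by name; they and the gene lists were chosen with earlier results of these data known. The text names all 10 members, the list genes by counts, and the 3 genes most correlated with each member among those averaging at least 1 RPKM (log2 CPM, prior count 2). Some of these genes are not reported here. List genes given with values were picked as examples after their values were seen. Vamp7 and Adgre1 were not analysed here. Promoter windows were taken from RefSeq (GRCm38.p6) and searched with Python 3.11.15; windows were aligned with Biopython 1.88.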

Additional observations from a re-analysis of the deposited data

Results flagged for a closer look

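5 results were singled out because the effect of 21h10 against mIL-21 differed between doses by a test of that difference. From 100 pM to 1 nM, the log2 difference between the cytokines changed by -1.31 for Gzma, -0.57 for Gzmb, -1.34 for Gzmd and -0.30 for Prf1 (edgeR's quasi-likelihood test, adjusted p = 1.4e-09, 7.9e-06, 0.033 and 0.023). Of these, Gzma and Gzmb kept the call in every fit that left out 1 library, whereas Gzmd and Prf1 did not. DESeq2 did not call Gzmd (adjusted p = 0.41), and limma called neither Gzmd nor Prf1 (adjusted p = 0.10 and 0.15). With library sizes from mapped reads Prf1 was not called (edgeR adjusted p = 0.083). From 10 nM to 100 nM it changed by 0.58 for Gzma (edgeR adjusted p = 0.049), a call that was lost without 7 of the 8 treated libraries. The number of duplicates was too small for a search for single libraries that stand apart within a group.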

How the results depend on the processing

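Of 91 called log2 fold changes of members, none changed direction in 1537 refits, 1415 kept the call and 122 lost it. Most losses came when 1 library was left out, but most of the refits were of that kind. DESeq2 kept 79 calls and lost 12, and limma, which tested fewer, kept 71 and lost 10. Each of the other alternatives lost 6 or fewer. Where leaving out a library left an arm with 1 library, that arm was assumed to vary like the other groups. Library sizes from mapped reads shifted the median of all genes against unstimulated cells by up to -0.32 in experiment 2 and -0.12 in experiment 1. With 2 libraries per group, 4 to 14 reads of Gzmf in treated libraries of experiment 2 and levels under 1 RPKM of Gzmm limit the precision. TMM-scaled RPKM was 1.12 to 1.26 times the deposited level in experiment 1 and 1.2 to 1.51 times in experiment 2. Apart from the members that limma did not hold, the cause was not tested for the changes below.

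The number of members called differed by more than 1.5 times as follows. The limma fit held only genes with at least 1 RPKM in at least 2 libraries of an experiment. It did not test Gzmm in either experiment or Gzmg in experiment 1. Of the 8 members called with 100 pM 21h10, Gzmg and Gzmm were therefore not tested and Gzmd lost the call. limma on log2(RPKM + 1) gave 5 of the 8 with 100 pM 21h10, 0 of the 1 for 100 pM 21h10 against 1 nM mIL-21, 2 of the 4 for the change from 100 pM to 1 nM, 1 of the 3 at 100 nM, 0 of the 2 for 100 against 10 nM 21h10 and 0 of the 1 for the change from 10 to 100 nM. DESeq2 and the unfiltered fit each gave 2 for 100 pM 21h10 against 1 nM mIL-21. The unfiltered fit gave 1 and the fit of the compared groups alone 1 between the cytokines at 10 nM, where there was 0. For the change from 10 to 100 nM, the unfiltered fit gave 2, and library sizes from mapped reads and the most-read transcript gave 0. With 1 library left out the counts ranged from 0 to 1 (100 pM 21h10 against 1 nM mIL-21), 2 to 4 (change from 100 pM to 1 nM), 4 to 7 (10 nM 21h10), 1 to 3 (cytokines at 100 nM), 0 to 2 (100 against 10 nM 21h10) and 0 to 1 (change from 10 to 100 nM).

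The 99 values of members that were not called gave 1651 refits, of which 64 passed the threshold, 25 of them with 1 library left out, and 82 changed sign, none of them past the threshold. Of the values reported, library sizes from mapped reads put Gzme at -0.0528 with 10 nM mIL-21 against no cytokine, Gzme at -0.258 with 10 nM 21h10 against no cytokine, Gzmg at -0.244 with 100 nM 21h10 against no cytokine, Gzma at -0.00562, Gzmb at -0.0161, Gzmk at -0.0316 and Prf1 at -0.0757 between the cytokines at 10 nM. With limma, the sign changed for Gzmc at -0.0133 with 1 nM mIL-21 against no cytokine, Gzme at -0.0303 with 10 nM mIL-21 against no cytokine, Gzme at -0.168 with 10 nM 21h10 against no cytokine, Gzmg at -0.114 with 100 nM 21h10 against no cytokine, Gzma at -0.00677, Gzmb at -0.0174, Gzmk at -0.0375 and Prf1 at -0.0686 between the cytokines at 10 nM. With 1 library left out, values ran across 0 in experiment 1 for Gzmc from -1.001 to 0.368, Gzmg from -0.203 to 0.0803 and Gzmm from -0.184 to 0.388 with 100 pM mIL-21 against no cytokine, Gzme from -0.0128 to 0.156 with 100 pM 21h10 against no cytokine, Gzmc from -0.998 to 0.998 and Gzmg from -0.0276 to 0.256 with 1 nM mIL-21 against no cytokine, Gzmc from -1.08 to 1.49 and Gzmg from -0.265 to 0.0182 with 1 nM 21h10 against no cytokine, Gzma from -0.0771 to 0.0384 and Gzmk from -0.0472 to 0.0697 for 100 pM 21h10 against 1 nM mIL-21. In experiment 2 this held for Gzmg from -0.673 to 0.0365 with 10 nM mIL-21 against no cytokine, Gzme from -0.174 to 0.18 with 10 nM 21h10 against no cytokine, Gzmd from -0.0129 to 0.524 and Gzme from -0.151 to 0.0925 with 100 nM mIL-21 against no cytokine, Gzmd from -0.279 to 0.822 and Gzmg from -0.223 to 0.408 with 100 nM 21h10 against no cytokine, Gzmk from -0.111 to 0.207 and Prf1 from -0.0921 to 0.132 between the cytokines at 10 nM, Gzma from -0.243 to 0.021 for 100 against 10 nM mIL-21, Gzmk from -0.222 to 0.0957 for 100 against 10 nM 21h10.

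Samples with the same duplicate number did not deviate together, with correlations of -0.062 to 0.029 in experiment 1 and -0.17 to 0.23 in experiment 2 over 10 pairs of groups each. A fit with the replicate number as a block gave 6 members in place of 7 between the cytokines at 100 pM, 5 in place of 6 for 1 nM against 100 pM mIL-21, 7 in place of 6 with 10 nM mIL-21 and 3 in place of 2 for 100 against 10 nM 21h10, and the same number as without the block in the other 15 comparisons.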
